A study of Mus musculus with 2 samples.

Results

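The genes described here encode potassium channel subunits and the related hyperpolarization-activated cation channels (HCN). Membership rests on the symbol, although the family and the marker and partner lists used here were picked with earlier results of these data known. It covers all genes whose platform annotation begins with Kcn or is that of an HCN channel, which gave 95 of the 19503 genes with a value. RNA came from pooled cerebella of Tg(Pcp2-L10a-Egfp) mice at postnatal day 7, with 1 array for each of 2 fractions. In these mice the promoter of Pcp2, a Purkinje cell gene, drives a fusion of ribosomal protein L10a with green fluorescent protein. Beads with antibodies to the fluorescent protein captured tagged ribosomes with their mRNA (translating ribosome affinity purification, TRAP), and the unbound fraction is the RNA collected from what the beads left. Both fractions carry the transgene and had no other treatment. How many animals a pool held is not stated in the labels. With 1 array for each fraction, no difference has a replicate check and no test was run.

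Potassium channels let potassium leave the cell and so set the resting potential, end the action potential and limit repetitive firing. Pore-forming subunits assemble around a selective pore, and auxiliary subunits bind them and change their opening, inactivation or transport to the membrane. HCN channels open on hyperpolarization and carry an inward pacemaker current. Purkinje cells fire fast and regularly, and voltage-gated and calcium-activated potassium channels are known to shape that firing, whereas granule cells are known for leak channels and glia for inward rectifiers.

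Values are log2 expression as deposited, and each difference is TRAP minus unbound. A gene is called above the floor when at least 1 array exceeds 7.079, which is the median over the probe sets of both arrays together. The arrays' own medians were 6.92 for TRAP and 7.25 for unbound. Pcp2 itself read 12.98 in TRAP and 11.65 in unbound, and Rpl10a, the gene of the tagged protein, 12.67 and 12.13. The 14 Purkinje cell markers with a value all had the higher one in TRAP, by at least 2-fold for 9, and their median difference was 1.36. Of the 56 markers of other cell types, none was at least 2-fold higher in TRAP as deposited. Over all genes the share at least 2-fold higher in TRAP, above the floor on at least 1 array, was 4.37%. In RNA from mixed cells, fewer cells of a type and less RNA per cell cannot be told apart.

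Of the 95 channel genes, 7 exceeded 2-fold in the TRAP direction and 11 in the unbound direction, each above the floor on at least 1 array. Over all 19503 genes the same rule was met by 4.37% in the TRAP direction and by 10.0% in the unbound direction, and the channel genes by 7.37% and 11.6%. The share of channel genes in the unbound direction was thus near that of all genes. The median difference over the 95 channel genes was 0.067, beside 0.099 over all genes. The quartiles of the channel genes were -0.53 and 0.43, and those of all genes -0.39 and 0.36. The split of the calls moved with the scaling, for the channel genes as for all genes. As deposited, 38.9% of the 18 channel genes called and 30.4% of all 2808 genes called were higher in TRAP. The shares were 55.0% of 20 and 58.6% of 2938 with each array's median subtracted, 52.4% of 21 and 46.7% of 2701 after quantile normalization, and 42.1% of 19 and 36.1% of 2723 after removal of a trend of the difference on level. Subtraction of the medians raised the difference of the typical gene by 0.331, to a median of 0.43 over all genes. That is farther from equality than as deposited, so genes that reach 2-fold in TRAP only under that scaling share this shift.

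**Figure D1:**
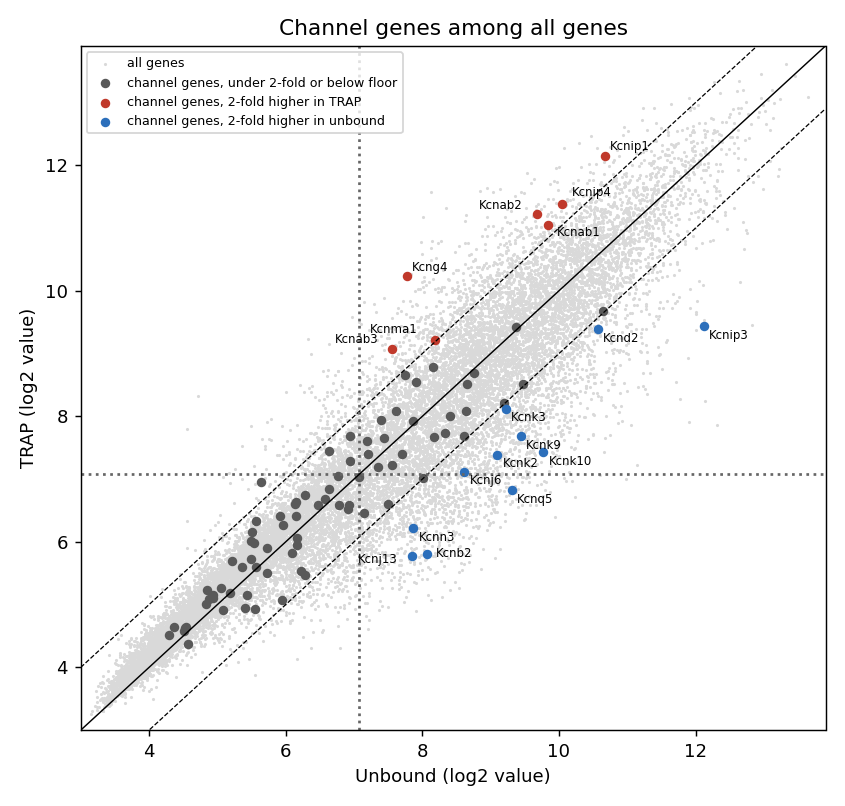
Log2 value in unbound (x) against TRAP (y) for 19503 genes (grey) and the 95 channel genes (dark or coloured points), with 1 array per axis. The solid line marks equal values, dashed lines a 2-fold difference and dotted lines the floor of 7.079. Among the channel genes, Kcng4 lies farthest above the diagonal and Kcnip3 farthest below it.

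The calls were also counted by the role of the subunit. Auxiliary subunits (Kv beta, KChIP, KCNE and BK beta) made up 16 of the genes, of which 5 reached 2-fold in the TRAP direction and 1 in the unbound direction. Of the 75 pore-forming and modulatory subunits, 2 reached it in the TRAP direction and 10 in the unbound direction. The counts for auxiliary subunits were 5 and 1 under each of the 3 other scalings. For pore-forming and modulatory subunits they were 6 and 8 with the medians subtracted, 6 and 9 after quantile normalization and 3 and 10 with the trend removed. In the TRAP direction this was 2.67% of them as deposited, beside 4.37% of all genes, while with the medians subtracted the 6 of 75 stand beside 8.83% of all genes. In the unbound direction it was 13.3% as deposited, near the 10.0% of all genes. All genes gave 6.23% in the unbound direction with the medians subtracted, 6.47% (TRAP) and 7.38% (unbound) after quantile normalization, and 5.05% and 8.92% with the trend removed. The 5 auxiliary genes in the TRAP direction are 31.2% of 16, and all belong to the Kv beta and KChIP groups. No test of the difference between the roles was run. None of the 7 genes higher in TRAP had a value below the floor. Of the 11 higher in unbound, 4 (Kcnb2, Kcnq5, Kcnn3 and Kcnj13) had a TRAP value below it, where detection is unknown and the fold therefore uncertain.

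The sequence before the transcription start is shown for the genes at least 2-fold apart that have exactly 1 start in the RefSeq promoter table (GRCm38.p6), because there no choice between starts is needed. Of the 95 genes, 72 matched that table, among them 14 of the 18 genes at least 2-fold apart, and 5 of these have 1 start. Each sequence is the 250 bases before the start, 5′ to 3′ on the gene's strand, with motif matches in capitals. The windows are chr8:119635681-119635930 on the minus strand for Kcng4, chr14:24004206-24004455 on the minus strand for Kcnma1, chr6:21215096-21215345 on the plus strand for Kcnd2, chr1:87394730-87394979 on the minus strand for Kcnj13, and chr3:89519914-89520163 on the plus strand for Kcnn3. Kcng4 and Kcnma1 were higher in TRAP and the other 3 in unbound.
Kcng4: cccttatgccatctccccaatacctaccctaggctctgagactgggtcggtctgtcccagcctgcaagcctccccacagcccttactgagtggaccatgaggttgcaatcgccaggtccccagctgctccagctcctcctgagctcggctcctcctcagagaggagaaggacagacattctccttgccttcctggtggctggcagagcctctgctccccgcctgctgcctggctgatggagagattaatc
Kcnma1: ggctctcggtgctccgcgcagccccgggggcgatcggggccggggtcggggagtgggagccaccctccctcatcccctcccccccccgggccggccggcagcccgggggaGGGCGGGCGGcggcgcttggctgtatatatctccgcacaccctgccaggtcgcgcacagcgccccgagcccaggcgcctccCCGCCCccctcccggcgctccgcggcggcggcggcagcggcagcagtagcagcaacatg
Kcnd2: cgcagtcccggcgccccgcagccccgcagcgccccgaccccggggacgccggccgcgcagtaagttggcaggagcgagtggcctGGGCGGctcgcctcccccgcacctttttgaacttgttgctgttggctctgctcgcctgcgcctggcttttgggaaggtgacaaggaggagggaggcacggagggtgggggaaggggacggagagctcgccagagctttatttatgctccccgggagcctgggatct
Kcnj13: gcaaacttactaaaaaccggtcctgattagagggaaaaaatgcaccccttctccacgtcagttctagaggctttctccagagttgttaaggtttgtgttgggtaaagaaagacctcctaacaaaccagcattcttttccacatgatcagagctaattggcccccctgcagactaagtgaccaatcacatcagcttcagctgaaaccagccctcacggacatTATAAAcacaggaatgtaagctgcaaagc
Kcnn3: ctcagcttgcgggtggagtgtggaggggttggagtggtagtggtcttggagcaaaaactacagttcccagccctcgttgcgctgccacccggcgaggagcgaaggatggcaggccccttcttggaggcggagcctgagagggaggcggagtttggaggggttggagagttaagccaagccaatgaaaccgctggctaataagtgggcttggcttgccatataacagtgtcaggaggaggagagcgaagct

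The motifs searched on both strands were the core promoter motif TATAAA, the GC box GGGCGG, the nuclear receptor core site AGGTCA and the cyclic AMP response element TGACGTCA. The Kcnma1 window held 3 GC boxes, 2 of them overlapping each other, and the Kcnd2 window held 1. The Kcnj13 window held a TATAAA that begins 29 bases before the start. The windows of Kcng4 and Kcnn3 held none of these letters. The GC content was 79.2% for Kcnma1, 68.8% for Kcnd2, 60.4% for Kcng4, 58.8% for Kcnn3 and 45.2% for Kcnj13. Over the 97 windows of the channel genes the median GC content was 58.8%, beside 52.4% over all 32851 windows of the table. A GC box was present in 45.4% of channel gene windows and in 32.7% of all windows. TATAAA was present in 3.09% and 12.4%, AGGTCA in 7.22% and 14.0%, and TGACGTCA in 0 of 97 channel gene windows and 1.55% of all windows. A GC box was present in 30.8% of the 13 windows of genes higher in TRAP and in 31.2% of the 16 windows of genes higher in unbound. The windows of the whole promoter table belong to 27025 genes, not only to the 19503 with a value. Windows of 1 gene can overlap, and a match of letters is a description only.

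Kcng4 had the largest difference in the TRAP direction. It encodes a modulatory voltage-gated subunit that forms no functional channel alone and is known to join Kv2 pore subunits. It read 10.23 in TRAP and 7.77 in unbound (probe set 10582146), a difference of 2.47 or 5.52-fold. This was rank 24 of the 10524 genes above the floor, counted from the highest difference. Under the other scalings it was between 2.55 and 2.80. The remaining 9 modulatory genes were less than 2-fold apart as deposited. Kcns1 read 7.68 and 6.94, with its unbound value below the floor. Its difference became 1.07 with the medians subtracted and 1.05 after quantile normalization. Kcng2 read 7.94 and 7.39, and Kcng1 7.92 and 7.87, the latter nearly equal on both arrays. The other 6 (Kcng3, Kcnf1, Kcns2, Kcns3, Kcnv1 and Kcnv2) were below the floor on both arrays, with differences between -0.23 and 0.47.

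The Kv2 pore subunit gene on the table, Kcnb2, lay at the opposite end. It read 5.81 in TRAP and 8.07 in unbound, a difference of -2.27 or 4.81-fold, and between -2.16 and -1.93 under the other scalings. Its TRAP value is below the floor. Kcng4 and Kcnb2 therefore differed in opposite directions between these arrays, although their products can share a channel.

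All 3 Kv beta genes were at least 2-fold higher in TRAP, as deposited and under each of the 3 other scalings. Kv beta proteins bind the cytoplasmic side of Kv1 channels, and some of them speed inactivation. Kcnab1 read 11.05 in TRAP against 9.84 in unbound, a 2.32-fold difference. Kcnab2 read 11.22 and 9.68, a 2.89-fold difference. Kcnab3 read 9.08 and 7.56, a 2.87-fold difference. The differences of the group ran from 1.21 to 1.53 and ranked 512, 241 and 246 of 10524 genes for Kcnab1, Kcnab2 and Kcnab3.

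Kv beta proteins assemble with Kv1 pore subunits, and none of the Kv1 genes above the floor was at least 2-fold apart as deposited. Kv1 channels open near threshold and act at axons and terminals. Kcna1 read 9.43 in TRAP and 9.37 in unbound. Kcna2 read 8.08 and 8.64, and its 2 probe sets gave differences of -0.76 and -0.36. Kcna3 read 7.67 and 8.17. Kcna6 read 8.66 and 7.74, a difference of 0.92 that reached 1.25, 1.22 and 1.09 with the medians subtracted, after quantile normalization and with the trend removed. Kcna4 read 6.95 and 5.64, a difference of 1.31 with both arrays below the floor. With the medians subtracted and after quantile normalization, where the floor was recomputed, it counted as at least 2-fold higher in TRAP. Kcna5, Kcna7 and Kcna10 were below the floor on both arrays, with differences between 0.22 and 0.52. None of the 8 Kv1 genes was at least 2-fold higher in unbound.

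The 4 KChIP genes divided. KChIP proteins are calcium-binding auxiliary subunits of Kv4 channels, which carry the fast inactivating current of dendrites and cell bodies. Kcnip1 read 12.15 in TRAP and 10.67 in unbound, a difference of 1.48 or 2.78-fold. Kcnip4 read 11.39 and 10.05, a difference of 1.34 or 2.53-fold. Kcnip3, whose product is also known as the transcriptional repressor DREAM and as calsenilin, read 9.44 in TRAP and 12.12 in unbound (probe set 10487392). Its difference of -2.68, or 6.39-fold, was the largest of all channel genes in the unbound direction and rank 95 of 10524 genes from that end. Kcnip2 read 7.01 and 8.01, a difference of -0.9997 just short of 2-fold, with the TRAP value below the floor. Each of the 4 kept its direction under every scaling.

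For the Kv4 pore subunits, Kcnd2 read 9.39 in TRAP against 10.57 in unbound, a 2.26-fold difference of -1.18. That difference was -0.85 with the medians subtracted, -1.13 after quantile normalization and -1.19 with the trend removed. Kcnd3 read 8.51 and 8.66, nearly equal, and its difference of -0.15 turned to 0.18 with the medians subtracted and 0.10 after quantile normalization. Kcnd1 was below the floor on both arrays at 6.59 and 6.48. The long noncoding RNA annotated as Kcnd3os read 8.08 and 7.62. Whether these probe sets separate the strands is not stated in the labels, so signal from Kcnd3os and Kcnd3 may not be separate. Dpp10, a transmembrane partner of Kv4 channels that is not a Kcn gene, read 9.41 in TRAP against 7.54 in unbound, a 3.65-fold difference. Its relative Dpp6 read 6.51 and 7.17, with the TRAP value below the floor.

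**Figure D2:**
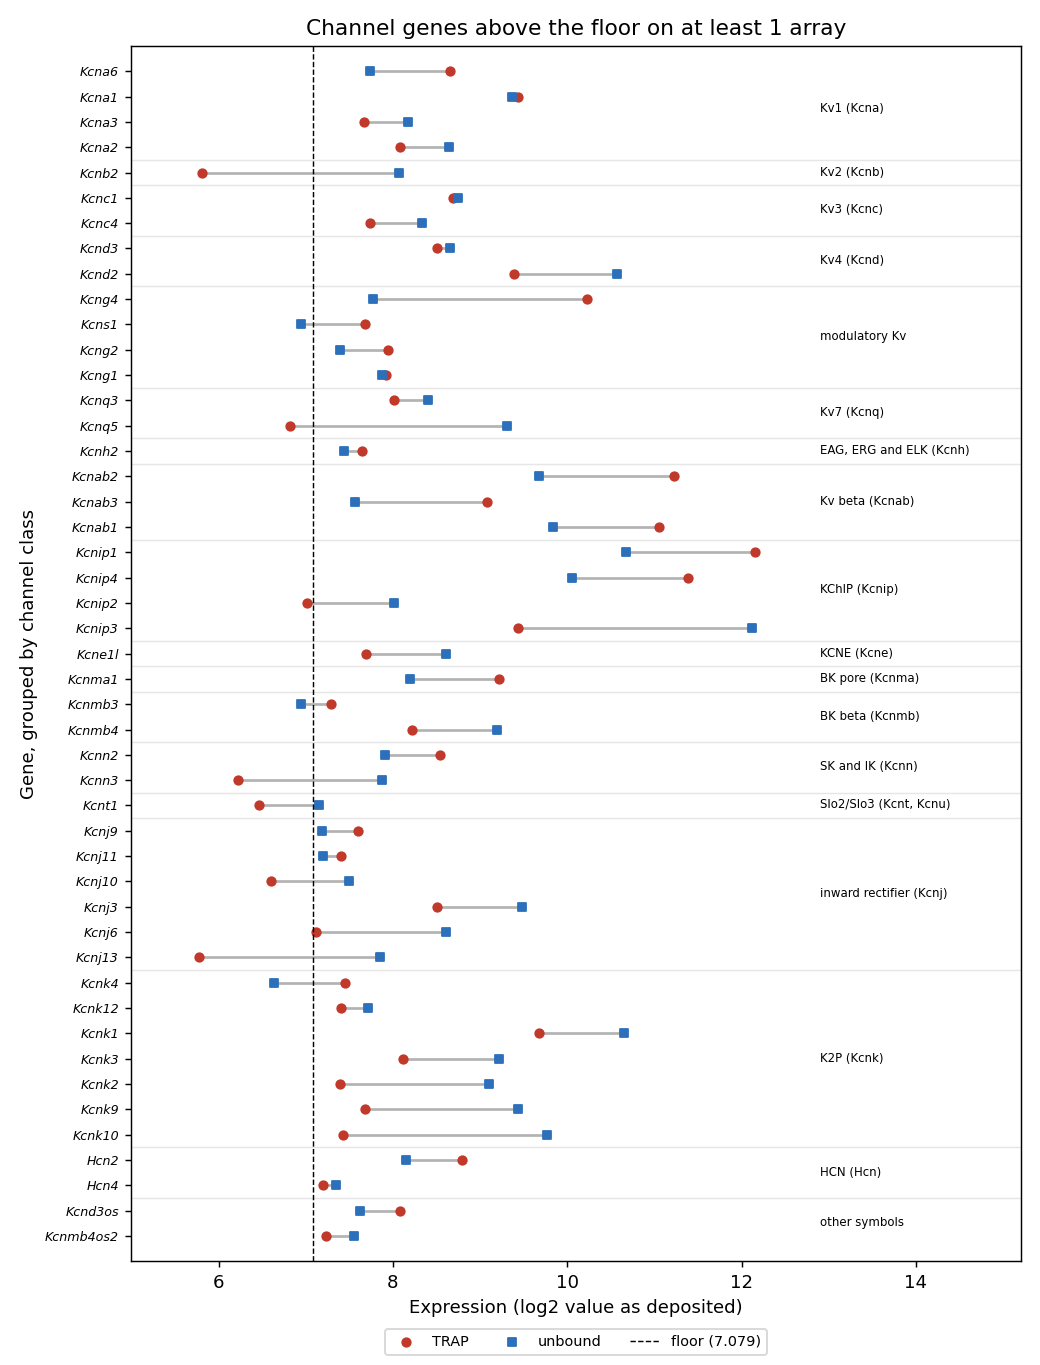
Log2 values (x) of the 47 channel genes above the floor on at least 1 array, with TRAP as circles and unbound as squares, 1 array each, grouped by channel class (y). The dashed line is the floor of 7.079, and values of different genes are not comparable with each other. The 3 Kv beta genes and Kcng4 have the circle to the right, and 4 of the 7 K2P genes have the square to the right by at least 1.

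Kv3 channels open at high voltages and allow fast repolarization. Kcnc1 read 8.69 in TRAP and 8.75 in unbound, nearly equal, with a difference of -0.06 that was positive under each of the other scalings (0.27, 0.17 and 0.06). Kcnc4 read 7.74 and 8.33, a difference of -0.59 that stayed negative under each of the other scalings. Kcnc2 was below the floor on both arrays. Among Kv7 genes, whose channels carry the slow M-current, Kcnq5 read 6.82 in TRAP and 9.31 in unbound, a difference of -2.49 or 5.62-fold with the TRAP value below the floor. Kcnq3 read 8.01 and 8.40, and Kcnq1 was below the floor at 6.63 and 6.15. Of the 7 Kcnh genes (EAG, ERG and ELK channels), Kcnh2 alone was above the floor, at 7.65 in TRAP and 7.44 in unbound. The remaining 6 (Kcnh1, Kcnh3, Kcnh4, Kcnh5, Kcnh7 and Kcnh8) differed by between -0.34 and 0.47.

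Calcium-activated channels couple calcium entry to repolarization. Kcnma1, the pore of the large-conductance BK channel, read 9.22 in TRAP and 8.19 in unbound, a difference of 1.04 or 2.05-fold that lay between 1.15 and 1.37 under the other scalings. Kcnmb4, the BK beta subunit typical of neurons, read 8.22 and 9.19, a difference of -0.97. The pore and this beta subunit thus differed in opposite directions. Kcnmb3 read 7.29 and 6.94, with its unbound value below the floor. Kcnmb1 and Kcnmb2 were below the floor on both arrays, with differences of 0.10 and -0.86. Of the noncoding RNAs annotated beside Kcnmb4, Kcnmb4os2 read 7.23 and 7.55 and Kcnmb4os1 was below the floor at 6.68 and 6.58. The difference of Kcnmb4os2, -0.31, was 0.02 with the medians subtracted and 0.07 after quantile normalization.

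The small-conductance genes also went in both directions. Kcnn2, known as the main small-conductance channel of Purkinje cells, read 8.54 in TRAP and 7.91 in unbound, a difference of 0.63 that stayed under 2-fold at 0.97, 0.94 and 0.81 under the other scalings. Kcnn3 read 6.22 and 7.87, a difference of -1.64 or 3.13-fold, with its TRAP value below the floor. Kcnn1 and Kcnn4 were below the floor on both arrays, with differences of 0.21 and 0.65. In the related Slo family, Kcnt1, a sodium-activated channel, read 6.46 and 7.15, with its TRAP value below the floor. Kcnt2 and Kcnu1 were below the floor on both arrays, with differences of -0.63 and -0.17.

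Among K2P genes, which encode the background leak channels, 4 of 14 (28.6%, beside 10.0% of all genes) reached a 2-fold difference toward unbound as deposited. None did toward TRAP, where 4.37% of all genes did. Kcnk10 and Kcnk2, both mechanosensitive TREK channels, read 7.43 against 9.77 and 7.39 against 9.10 (TRAP first), differences of 5.07-fold and 3.26-fold. Kcnk9 and Kcnk3, the acid-sensitive TASK channels known from granule cells, read 7.68 against 9.44 and 8.12 against 9.22, differences of 3.38-fold and 2.15-fold. All 4 had both values above the floor. The difference of Kcnk3 was short of 2-fold under each of the other scalings, at -0.77, -0.87 and -0.98. Kcnk1 read 9.67 and 10.65, a difference of -0.98 that was -1.01 with the trend removed.

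The third member of the TREK group on the table stood apart from the other two. Kcnk4 read 7.45 in TRAP and 6.64 in unbound, a difference of 0.80 that reached 1.14 with the medians subtracted and 1.09 after quantile normalization, with its unbound value below the floor. Kcnk12 read 7.40 and 7.71, and its difference of -0.32 turned to 0.01 and 0.07 under those same scalings. The other 7 K2P genes (Kcnk5, Kcnk6, Kcnk7, Kcnk13, Kcnk15, Kcnk16 and Kcnk18) were below the floor on both arrays, with differences between 0.04 and 0.48.

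Inward rectifiers pass inward current more easily than outward current. Of 15 genes, 2 reached a 2-fold difference toward unbound (13.3%, near the 10.0% of all genes) and none toward TRAP. Kcnj13, a channel of the choroid plexus epithelium, read 5.78 in TRAP against 7.85 in unbound, a 4.20-fold difference with the TRAP value below the floor. Among the G protein-gated (GIRK) genes, Kcnj6 read 7.12 and 8.61, a 2.82-fold difference, and Kcnj3 read 8.51 and 9.48, a difference of -0.97. Kcnj9 read 7.60 and 7.19, higher in TRAP by 0.41, and Kcnj5 was below the floor on both arrays. The genes of this heteromeric channel family were thus not uniform in direction under any of the scalings.

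Kcnj10, the main inward rectifier of astrocytes and Bergmann glia, read 6.60 in TRAP and 7.50 in unbound, a difference of -0.90. The TRAP value of Kcnj10 is below the floor. Its partner Kcnj16 was below the floor at 5.48 and 6.28. Kcnj11, the pore of the ATP-sensitive channel, read 7.40 and 7.20. Kcnj15 carried the same value, 5.19, on both arrays. The remaining genes below the floor on both arrays were Kcnj1, Kcnj2, Kcnj4, Kcnj8, Kcnj12 and Kcnj14, with differences between -0.26 for Kcnj8 and 0.78 for Kcnj4.

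Of the 3 HCN genes on the table, Hcn2 read 8.79 in TRAP and 8.15 in unbound, a difference of 0.64 that was between 0.78 and 0.97 under the other scalings. Hcn4 read 7.20 and 7.35, and its difference of -0.15 was positive under each of the other scalings (0.18, 0.21 and 0.01). Hcn3 was below the floor at 6.53 and 6.91. Among KCNE auxiliary subunits, Kcne1l read 7.69 and 8.61, a difference of -0.91. Kcne1, Kcne2, Kcne3 and Kcne4 were below the floor on both arrays, with differences between -0.68 and 0.24, as was the regulator Kcnrg at 4.95 and 5.41.

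**Figure D3:**
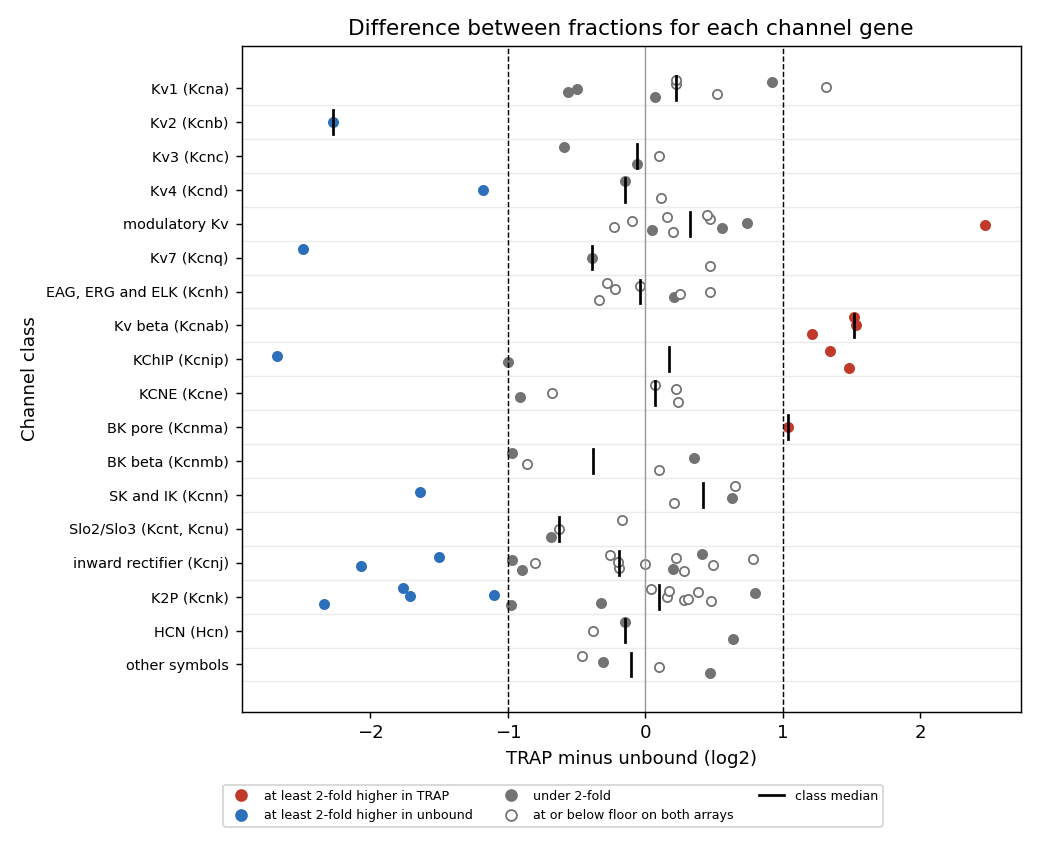
TRAP minus unbound on the log2 scale (x) for each of the 95 channel genes, grouped by class (y), from 1 array per fraction. Dashed lines mark a 2-fold difference, open circles genes below the floor on both arrays and black bars the class median. The 3 Kv beta genes lie between 1.21 and 1.53, and the KChIP and K2P classes span both sides of 0. The medians of several classes near 0 change sign with the scaling.

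Of the 95 genes, 48 were at or below the floor on both arrays, and their differences ran from -0.86 (Kcnmb2) to 1.31 (Kcna4). The 47 above it include 10 that passed on 1 array alone, so a summary over them favours genes that differ. Just outside the 2-fold size as deposited lay Kcnip2, Kcnk1, Kcnj3 and Kcnmb4 on the unbound side (-0.9997 to -0.97) and Kcna6 on the TRAP side (0.92). Just inside lay Kcnk3 (-1.10) and Kcnma1 (1.04). Without replicates these genes cannot be placed on either side with any stated error.

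**Figure D4:**
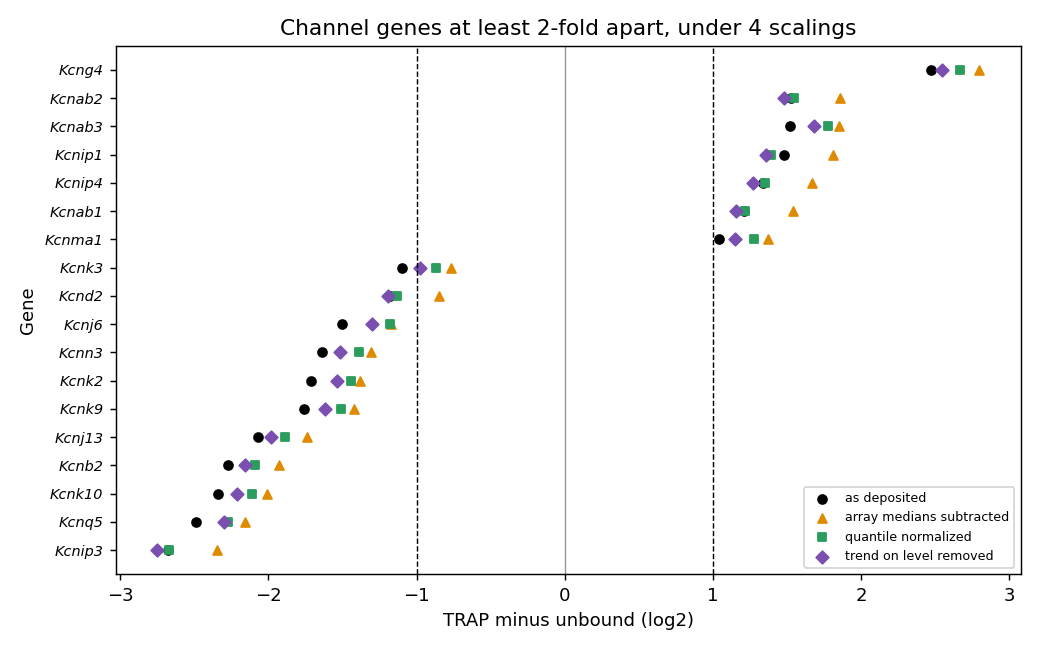
TRAP minus unbound on the log2 scale (x) for the 18 channel genes at least 2-fold apart as deposited (y), with the deposited values as circles and 3 other scalings as the remaining symbols, from 1 array per fraction. Dashed lines mark a 2-fold difference. All 18 keep their direction, and Kcnk3 and Kcnd2 are the genes that move inside the dashed lines.

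Genes that lie next to each other on a chromosome did not differ alike in every case. In the RefSeq order of protein-coding genes by start position, 10 pairs of the channel genes are direct neighbours. Gene ends were not used, so such neighbours can overlap. Kcnj9 and Kcnj10 are such a pair, with differences of 0.41 and -0.90. Kcnip1 (1.48) is followed by Kcnmb1 (0.10), and Kcnj6 (-1.50) by Kcnj15, which had equal values. In the Kv1 cluster of Kcna5, Kcna1 and Kcna6, the differences were 0.22, 0.07 and 0.92. In the cluster of Kcna3, Kcna2 and Kcna10 they were -0.50, -0.56 and 0.52. Of these genes, Kcna5, Kcna10, Kcnmb1 and Kcnj15 were below the floor on both arrays.

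A list of 32 other genes whose products bind, anchor or regulate these channels gave 31 with a value. Of these, 1 (Dpp10) was at least 2-fold higher in TRAP and 8 in unbound, beside 4.37% and 10.0% of all genes. The median difference of the 31 was 0.02. Nedd4l, a ubiquitin ligase of membrane channels, read 9.02 in TRAP against 11.20 in unbound, a 4.54-fold difference. The scaffold gene Dlg1 read 7.40 and 9.52, while its relatives Dlg2, Dlg3 and Dlg4 differed by 0.38, 0.11 and 0.03. Lrrc55, a BK gamma subunit, read 6.95 and 8.99, with its TRAP value below the floor.

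Genes of proteins linked to Kv1 channels at axons differed among themselves. Cntn2 (7.72 against 9.67, TRAP first) and Adam22 (7.57 against 9.49) were 3.86-fold and 3.76-fold higher in unbound. Lgi1, a secreted ligand of Adam22, read 8.06 and 9.07, a difference of -1.004 that was -0.67 with the medians subtracted. Epb41l3, a cytoskeletal linker of these complexes, read 11.42 and 10.55, higher in TRAP by 0.87 and by 1.21 with the medians subtracted. The difference was 0.83 after quantile normalization and 0.79 with the trend removed. Cntnap1 and Cntnap2, whose products lie in the axon membrane beside the node, differed by 0.14 and 0.08. Ank3, the ankyrin of the axon initial segment, read 9.47 and 10.69, and Akap5, an anchor of Kv7 channels, 8.71 and 9.78. Their differences of -1.22 and -1.07 were -0.89 and -0.74 with the medians subtracted. After quantile normalization they were -1.20 and -0.93, and with the trend removed -1.24 and -1.02.

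Of 56 markers of the cell types around Purkinje cells, 36 reached a 2-fold difference toward unbound, where 10.0% of all genes did. Another 3 were higher in TRAP by less than 2-fold. Those 3 were Hopx, an astrocyte gene, with a difference of 0.93 (1.27 with the medians subtracted), Grin2c with 0.18 and Pecam1 with 0.15, the last 2 of them below the floor on both arrays. Sfrp1, Mycn and Cspg4 had nearly equal values. Of 10 granule neuron markers, 9 reached 2-fold in the unbound direction, and their values ran from 6.31 to 11.84 in TRAP and from 6.13 to 12.91 in unbound. Of 10 markers of astrocytes and Bergmann glia, 7 reached that size, with values from 5.04 to 12.27 in TRAP and from 5.29 to 13.25 in unbound. For 9 oligodendrocyte lineage markers the count was 8, with values from 5.08 to 9.72 in TRAP and from 6.36 to 11.46 in unbound. For 7 interneuron markers it was 5, with values from 5.53 to 8.65 and from 5.90 to 10.65. For 7 granule progenitor markers it was 3, from 7.13 to 10.88 and from 7.86 to 10.88. Microglial and vascular markers were fewer above the floor, with 2 of 6 and 2 of 7 at least 2-fold higher in unbound. The part of these cells in the channel gene differences was not tested.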

How the data were processed

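RNA of the TRAP and unbound fractions was measured on 1 Affymetrix whole-transcript array each. The deposited table holds log2 values of probe sets. The authors computed them in Affymetrix Power Tools, according to the submitters' processing notes; its version, background correction and normalization are not stated, and the log base was inferred from the range. There are no detection calls, and the number of arrays limits the precision. Of 22097 probe sets, 20999 name 1 gene in the platform annotation, 91 with several genes were not used, and 1007 have no name here. Probe sets were averaged per gene (19503 genes); 93 of the 95 channel genes rest on 1 probe set. All 95 matched RefSeq (GRCm38.p6) by Entrez identifier.

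Differences are TRAP minus unbound on the values as deposited. The floor was the median of all probe set values (7.079). With 1 array per group no p-value is given. Alternatives were subtraction of array medians, quantile normalization, removal of a loess trend (span 0.3), other floors, the brightest probe set, and thresholds of 1.5-fold and 4-fold. Both values are given for each channel gene above the floor. The members and lists were chosen with earlier results of these data known. The scripts (Python 3.11.15, pandas 2.3.3, statsmodels 0.14.6) were tested on simulated data.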

Additional observations from a re-analysis of the deposited data

How the results depend on the processing

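The 18 channel genes at least 2-fold apart kept their direction under all 3 other scalings and with the brightest probe set, and the 7 higher in TRAP stayed at least 2-fold apart in each. Of the 11 higher in unbound, 9 did so with the array medians subtracted, 10 after quantile normalization and 10 with the trend removed. The count higher in TRAP was 11 with the medians subtracted and 11 after quantile normalization, against 7 as deposited; the added genes were Kcna4, Kcna6, Kcnk4 and Kcns1 in both settings. At 1.5-fold the counts were 12 in TRAP and 19 in unbound, and at 4-fold 1 and 5. With the floor at the 75th percentile 7 genes were higher in TRAP and 7 in unbound, since fewer genes pass. Partner genes at least 2-fold apart numbered 9, with 14 at 1.5-fold and 3 at 4-fold. Shares over all genes at 1.5-fold, at 4-fold and at the 75th percentile floor are not given here. The counts under those settings therefore have no background beside them. The median difference over the channel genes, 0.067, was 0.397 with the medians subtracted, 0.066 after quantile normalization and 0.008 with the trend removed. Over all genes the median was 0.43, 0.065 and 0.004 under these scalings and 0.099 as deposited, so the channel genes moved with all genes. The channel gene median was -0.151 over the 41 genes whose mean lay above the floor. It was -0.967 over the 18 above the 75th percentile floor, and both are other sets of genes. No paired analysis was possible because each fraction has 1 array. The absence of detection calls limits what can be said of values below the floor.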
